A study of Ovis aries with 15 samples.

Results

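The genes described here move calcium out of and back into the sarcoplasmic reticulum, the internal calcium store of the muscle fibre, or hold it in the store or the cytosol. They were named as RYR1, CACNA1S, TRDN, CASQ1, CASQ2, ATP2A1, ATP2A2, SLN, PLN and PVALB, 10 genes in all, and every probe set whose only annotated symbol was 1 of these was taken. This gave 11 probe sets for 5 genes (ATP2A1, ATP2A2, SLN, PLN and CACNA1S) among the 24016 probe sets of the array without its controls. All 11 passed the filter on low signals, as did 15998 probe sets of the whole array, but CACNA1S passed it with 3 arrays only, the minimum. RYR1, CASQ1, CASQ2, PVALB and TRDN matched no probe set and were not analysed here.

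The samples were longissimus dorsi (LD) muscle, a muscle of the back, from Dorset/Suffolk/Rambouillet cross sheep at 5 stages of development. Fetuses were taken at 80, 100 and 120 d, newborn lambs at 150 d, in the first days of life, and lambs aged 12 weeks at 230 d, with 3 animals and 3 arrays at each stage and different animals throughout. By the account of the paper some of the animals at 100 d and 120 d were female and all others male, and since the sex of a single animal is not in the labels it was not a term of any fit. RNA of the whole muscle sample was hybridised to an Affymetrix array designed on cattle, so ovine RNA that differs from the bovine probes would read low.

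When a motor nerve fires, the voltage sensor of the surface membrane, of which CACNA1S is the main subunit, opens the release channel RYR1 in the store and calcium floods the fibre. Calsequestrin (CASQ1 and CASQ2) binds calcium inside the store, triadin (TRDN) ties it to the release channel, and parvalbumin (PVALB) binds calcium in the cytosol. Relaxation depends on the SERCA pumps, which return calcium to the store at the cost of ATP. ATP2A1 encodes SERCA1, the pump of fast fibres, and ATP2A2 encodes SERCA2, the pump of slow fibres and heart with an isoform found in most cells. Sarcolipin (SLN) and phospholamban (PLN) are small membrane proteins that bind the pump and restrain it.

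The fast pump, ATP2A1, was lowest at 80 d and rose through fetal life and across birth. It had 2 probe sets, and on the brighter, which leads here, the signal was 1842.0, 1867.8 and 1885.4 at 80 d, then 3726.5, 4286.5 and 3976.3 at 100 d, and 9515.1, 9680.3 and 7437.2 at 120 d. Newborn lambs at 150 d had 22603.6, 16110.0 and 22094.8, and lambs at 230 d had 22459.6, 20969.5 and 30018.9. Each stage up to 150 d lay wholly above the one before it, and the 2 postnatal stages overlapped. The dimmer one ran from 1711.6 to 1804.0 at 80 d, 2526.7 to 3247.9 at 100 d and then 6162.5 to 6715.5 at 120 d. It reached 13700.8 to 16914.6 in newborn lambs and 16370.8 to 20222.6 in lambs of 230 d, in the same order and with the same overlap. The log2 signals of the 2 probe sets correlated at r = 0.992 over the 15 arrays, which share their stages, so this is a description.

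In the limma fit over all kept probe sets, with Benjamini-Hochberg adjustment and a threshold of 0.01, ATP2A1 rose by 2.24 ± 0.20 on the log2 scale (SE) in the 120 d fetus over the 80 d fetus, 4.73-fold, with an adjusted p of 5.2e-05. It rose again by 1.19 ± 0.20, 2.27-fold, at 150 d over 120 d (adjusted p = 0.0013), a call that was lost with only the arrays of these 2 stages and, at 0.53 on the log2 scale, with the hybridisation controls (bacterial transcripts added to every array) as the scale, where the median of all kept probe sets was -0.81. The 2 shorter fetal steps, 1.10 at 100 d over 80 d and 1.14 at 120 d over 100 d, did not pass the threshold (adjusted p = 0.04 and 0.045). Between 150 d and 230 d the difference was 0.27, with a 95% interval of -0.16 to 0.70. By 120 d the gene had covered 60.6% of its log2 rise between 80 d and 230 d, and by 150 d 92.6%. The dimmer probe set rose by 1.86 at 120 d over 80 d (adjusted p = 5.2e-05) and by 1.25 at 150 d over 120 d (adjusted p = 0.00032). Its call across birth was lost with quantile normalization, with the hybridisation controls as the scale and with only the arrays of the 2 stages.

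The slow pump, ATP2A2, followed a later course. It had 4 probe sets, of which the brightest gave 5160.8, 5458.9 and 5897.1 at 80 d, 5338.7, 5231.2 and 5098.9 at 100 d, and 8133.0, 7492.0 and 6541.6 at 120 d. At 150 d it gave 19914.0, 16349.4 and 21494.8, and at 230 d 16395.9, 19922.5 and 15526.7. The first 2 fetal stages overlapped, the 3 arrays of 120 d lay above them, and every postnatal array lay above every fetal one by a wide gap. It rose by 1.38 ± 0.17 on the log2 scale (SE), 2.60-fold, at 150 d over 120 d (limma, adjusted p = 0.00024). That call was lost with only the arrays of these 2 stages and, at 0.72 on the log2 scale, with the hybridisation controls as the scale. At 120 d over 80 d the difference was 0.42 (adjusted p = 0.23, 95% interval 0.05 to 0.79). Only 25.6% of its log2 rise to 230 d was in place at 120 d, and the 150 d mean was 111% of the 230 d mean.

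The other probe sets of ATP2A2 differed among themselves. The second brightest ran from 13664.2 to 16083.4 over the 6 postnatal arrays and from 3933.1 to 7615.1 over the 9 fetal ones, and rose by 1.17 at 150 d over 120 d (adjusted p = 0.00045). The dimmest ran from 693.5 to 1393.4 on the postnatal arrays and from 136.1 to 445.7 on the fetal arrays, with a rise of 1.67 at 150 d over 120 d (adjusted p = 0.0027). These and the brightest probe set correlated with each other at r = 0.954 to 0.980. The second lost its call with quantile normalization, with the hybridisation controls as the scale and with only 120 d and 150 d fitted. The dimmest lost its call in the last 2 of these settings and without 120 d replicate 3 or 150 d replicate 3. The remaining probe set, the third in brightness, gave 1205.2, 1302.2 and 1254.6 at 80 d, 1141.1, 922.7 and 1057.3 at 100 d, 782.1, 861.5 and 867.4 at 120 d, 1076.1, 1488.2 and 961.1 at 150 d, and 781.9, 1147.2 and 694.6 at 230 d. It was called in no comparison (adjusted p = 0.13 by the moderated F test over all stages), and its correlation with the other 3 lay between -0.184 and -0.122. Which transcripts of ATP2A2 each probe set reads was not given in the sources used here. ATP2A1 and ATP2A2 are close relatives in sequence, so a part of the signal of each could come from the other, which was not tested.

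**Figure D1:**
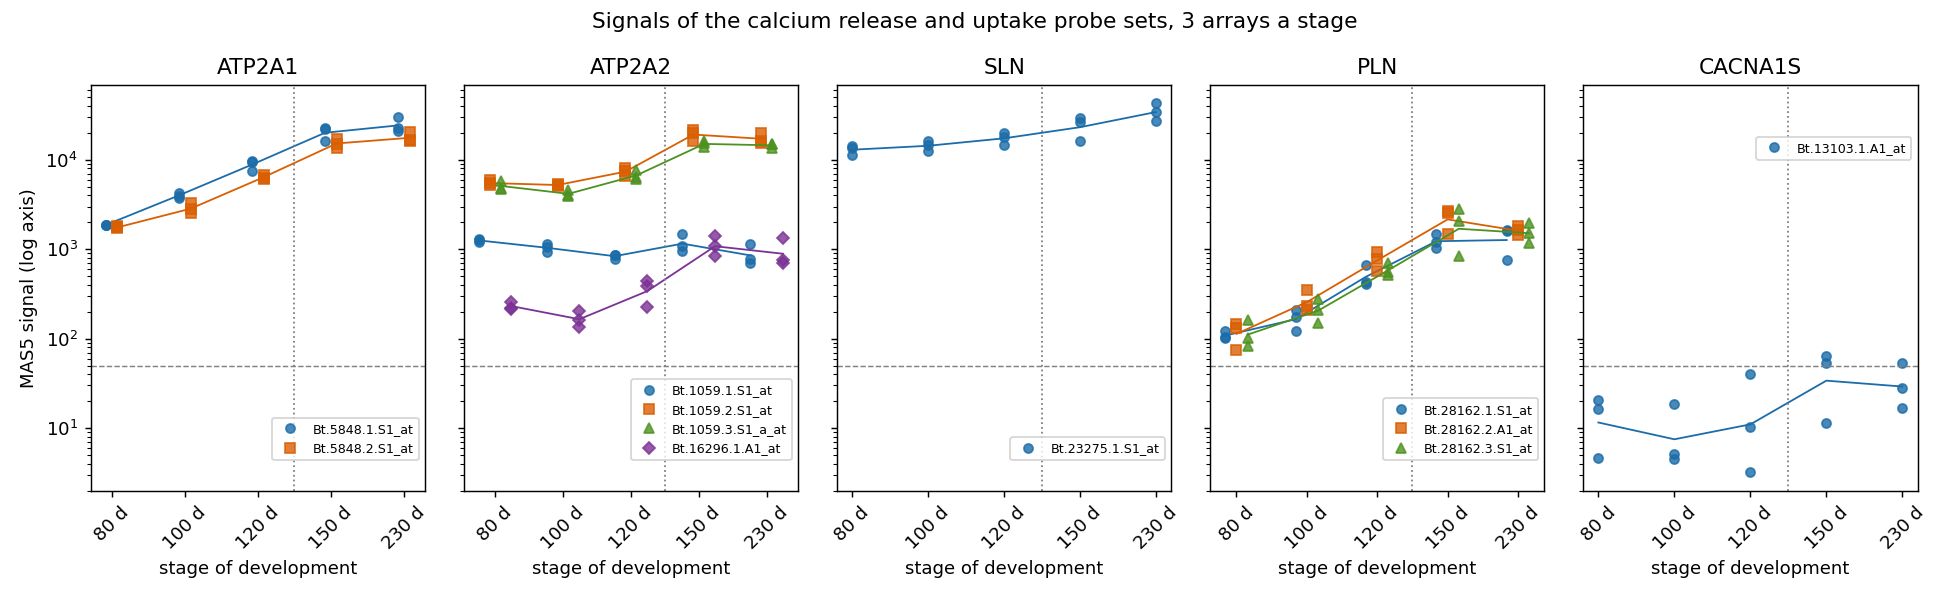
MAS5 signal (log axis) of every calcium probe set on each of the 15 arrays, by stage, with 1 panel per gene, 1 colour and marker per probe set and a line through the geometric means. The dotted line stands between the fetal and postnatal stages and the dashed line at a signal of 50. ATP2A1 climbs from 80 d, 3 of the 4 ATP2A2 probe sets climb after 100 d, PLN climbs from about 100 at 80 d, and CACNA1S stays between 3.2 and 64.5.

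Sarcolipin was bright at every stage and had the smallest postnatal rise among the leading probe sets of the genes with a call. SLN gave 13655.3, 11208.7 and 14166.5 at 80 d, 16330.6, 14533.6 and 12373.3 at 100 d, 19726.4, 18139.0 and 14561.5 at 120 d, 29373.3, 16067.0 and 26218.8 at 150 d, and 34125.6, 27450.5 and 42657.4 at 230 d. Neighbouring stages overlapped throughout, and the 230 d arrays lay above all fetal arrays. No neighbouring pair of stages differed past the threshold (adjusted p between 0.21 and 0.95), but the 2 postnatal stages together were 0.93 ± 0.16 higher on the log2 scale than the 3 fetal ones, 1.91-fold (adjusted p = 0.00047). That call was lost under quantile normalization and under scaling to the hybridisation controls, where the direction stayed. SLN stood near the top of the array at all stages, at ranks 19 to 30 from the brightest at 230 d and 67 to 97 at 80 d, of 24128 probe sets with controls. The brightest signal on an array also differed by stage, 40117.4 to 59221.4 at 230 d and 18505.7 to 26035.8 at 80 d, and its part in the SLN values was not tested.

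The 150 d array of replicate 2 was low for SLN, at 16067.0, and for ATP2A1, at 16110.0, beside the other 2 newborn lambs. Its summed signal of the fast fibre genes was 126700, against 200900 and 167900 on the other 150 d arrays, and that of the slow fibre genes was 82540, against 96180 and 93820. With that array left out, SLN in the postnatal over the fetal stages and ATP2A1 at 150 d over 120 d kept their calls, and PLN at 150 d over 120 d lost its call.

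Phospholamban was dim at 80 d and rose through fetal life. The brightest of its 3 probe sets gave 75.3, 147.0 and 130.9 at 80 d, 233.6, 207.5 and 349.3 at 100 d, and 943.0, 571.5 and 783.4 at 120 d. At 150 d it gave 1462.5, 2661.2 and 2569.2, and at 230 d 1433.0, 1796.9 and 1631.1. As with ATP2A1, each stage up to 150 d lay above the one before, and the 2 postnatal stages overlapped. At 120 d over 80 d the rise was 2.73 ± 0.32 on the log2 scale (SE), 6.63-fold (limma, adjusted p = 0.00046), rank 45 from the highest fitted rise among the 15998 probe sets. With only the arrays of these 2 stages this call was lost. At 150 d over 120 d the rise was 1.52 ± 0.32, 2.87-fold (adjusted p = 0.0053), a call that was lost when either of 2 arrays at 120 d or either of 2 at 150 d was left out, with only the arrays of these stages, with no filter, and at 0.865 with the hybridisation controls as the scale. By 120 d 71.2% of the log2 rise to 230 d was in place.

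The other 2 PLN probe sets rose over the same stages. From 80 d to 230 d in order of stage, the second brightest ran from 82.7 to 160.8, 150.2 to 278.0, 512.4 to 700.3, 830.5 to 2814.1 and 1168.7 to 1956.2. The dimmest ran from 100.9 to 122.2, 122.7 to 209.6, 408.3 to 671.7, 1027.9 to 1496.5 and 766.3 to 1640.1. They passed the threshold at 120 d over 80 d (adjusted p = 0.0067 for the second and 0.0021 for the dimmest) and missed it at 150 d over 120 d (adjusted p = 0.019 and 0.011), with log2 differences there of 1.53 and 1.32. The call of the second at 120 d over 80 d was lost in 8 of the 15 fits that left out 1 array. That of the dimmest was lost without 80 d replicate 1, 80 d replicate 3 or 120 d replicate 3. Both were also lost with only the arrays of these 2 stages. The second also lost its call with equal array medians, with the hybridisation controls as the scale and with no filter. The 3 PLN probe sets correlated at r = 0.962 to 0.977.

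CACNA1S was at the floor. Its 1 probe set gave 16.3, 4.6 and 20.7 at 80 d, 4.5, 18.5 and 5.1 at 100 d, 3.2, 40.7 and 10.3 at 120 d, 52.9, 11.5 and 64.5 at 150 d, and 16.7, 27.9 and 53.4 at 230 d. Of the 3 arrays at 50 or more, 2 were of 150 d and 1 of 230 d. The stages overlapped, no comparison passed (adjusted p = 0.24 by the moderated F test), and no fold is given since every stage mean lay under 50.

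**Figure D2:**
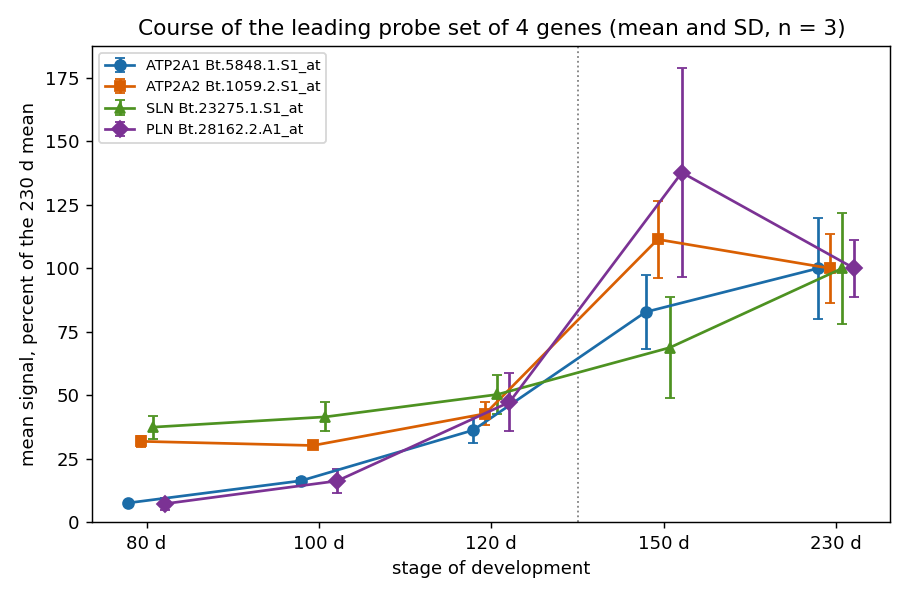
Mean signal of the leading probe set of ATP2A1, ATP2A2, SLN and PLN at each stage as a percent of its 230 d mean, with SD (n = 3 arrays). At 80 d ATP2A1 and PLN stand at 7.62% and 7.27%, and ATP2A2 and SLN at 31.9% and 37.5%.

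Over the set, 6 of the 11 probe sets were called higher at 150 d over 120 d and 0 lower, where 4.41% of all kept probe sets were called higher and 6.77% lower. The 6 were the 2 of ATP2A1, 3 of ATP2A2 and 1 of PLN, and the count became 0 when the hybridisation controls set the scale and 0 with only the arrays of the 2 stages in the fit. At 120 d over 80 d 5 were called higher and 0 lower, those of ATP2A1 and PLN, where 0.931% of all were called higher and 0.381% lower, and the count became 2 with only the arrays of the 2 stages and 3 without replicate 1 or 3 of 80 d or replicate 3 of 120 d. In the postnatal over the fetal stages 9 were higher and 0 lower, all but the third of ATP2A2 and that of CACNA1S, beside 13.3% and 21.3% of all probe sets. By the moderated F test over all stages 9 were called, where 25.8% of all were. Without CACNA1S, whose signals were too low for a fold, the median log2 fold change of the other 10 was 1.28 at 150 d over 120 d, 1.21 at 120 d over 80 d and 2.21 in the postnatal stages, beside -0.15, -0.02 and -0.13 over all kept probe sets. Probe sets of a gene share its RNA, so 11 probe sets are 5 genes, and the comparisons share arrays with each other.

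None of the 11 passed at 100 d over 80 d, at 120 d over 100 d or at 230 d over 150 d in the limma fit. At 100 d over 80 d 0.125% of all kept probe sets were called in either direction and at 120 d over 100 d 0.0563%, while 1319 and 1190 had an unadjusted p under 0.05. At 230 d over 150 d 0.944% were called higher and 1.08% lower, with 3648 at an unadjusted p under 0.05. Under the nested F test of limma, which calls a probe set by its F test and then its single steps, 5 members were called at 100 d over 80 d, 8 at 120 d over 100 d and 3 at 230 d over 150 d, where 5.23%, 7.03% and 10.3% of all kept probe sets were called in either direction.

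**Figure D3:**
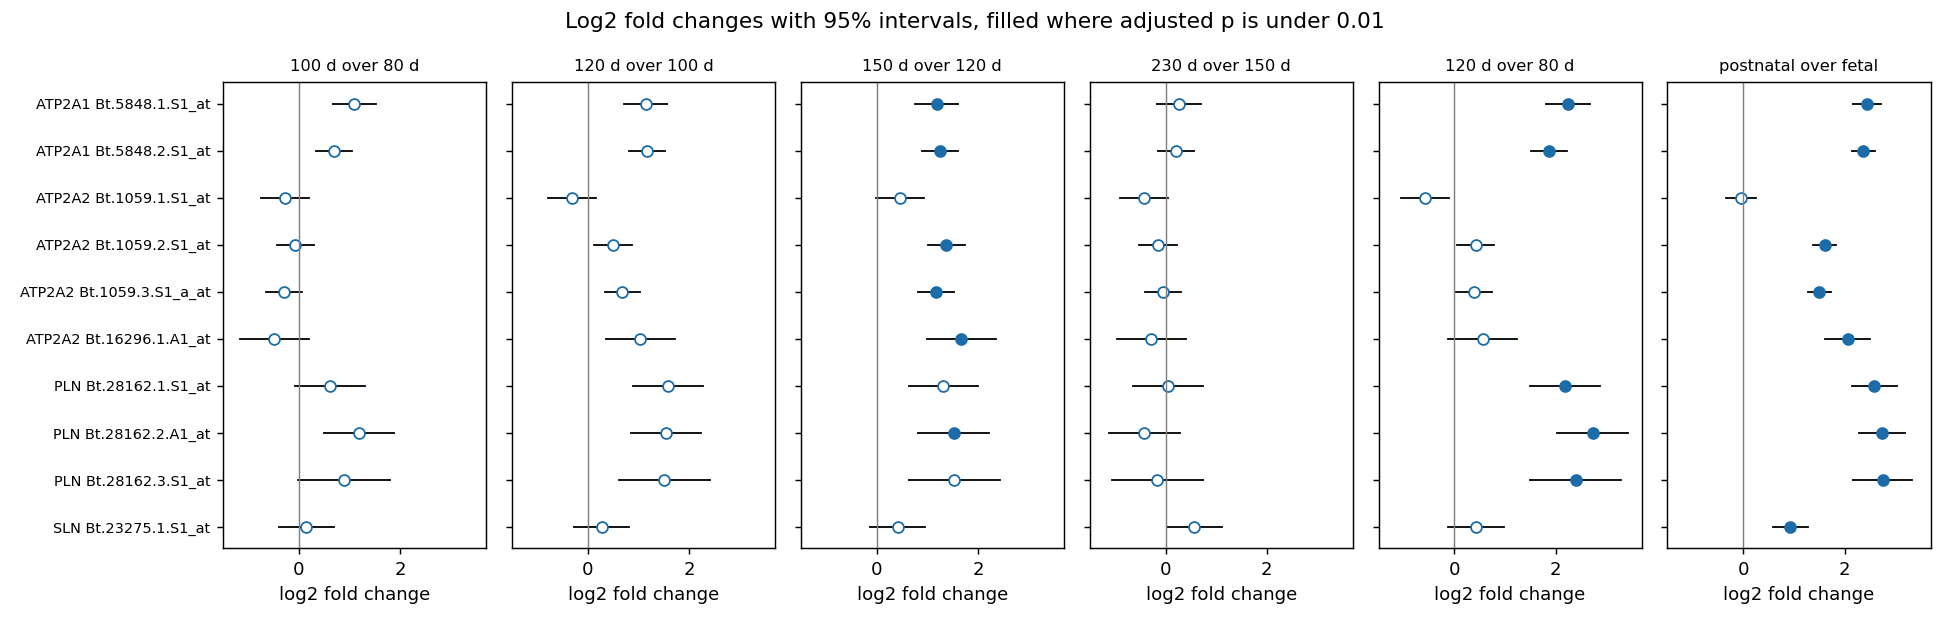
Log2 fold changes of 10 probe sets in 6 comparisons, with 95% intervals of the limma fit, filled where the adjusted p is under 0.01. CACNA1S is left out because its stage means lie under 50. The filled points are 5 at 120 d over 80 d, 6 at 150 d over 120 d and 9 in the postnatal over the fetal stages.

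Since ATP2A1 and ATP2A2 were read on the same arrays, their log2 ratio shows how unequally they moved, although its level, which depends on the probes, has no meaning. On the leading probe sets, ATP2A1 over ATP2A2 was -1.56 ± 0.08 at 80 d, -0.39 ± 0.12 at 100 d and then 0.26 ± 0.10 at 120 d, and in lambs 0.07 ± 0.11 at 150 d and 0.49 ± 0.44 at 230 d (SD, n = 3 arrays each). It shifted towards the fast pump by 1.82 between 80 d and 120 d, with no overlap at either step. An exact permutation test of 3 arrays against 3 cannot go below p = 0.1, and gave 0.1 for each fetal step. At 150 d over 120 d the ratio differed by -0.19, also without overlap (exact permutation p = 0.1). The highest 150 d array (0.183) and the lowest 120 d array (0.185) were almost equal. In the postnatal arrays the mean was 0.28 ± 0.37 (n = 6), against -0.56 ± 0.80 in the fetal arrays (n = 9), a difference of 0.84 (two-sided exact permutation test, p = 0.035, and 0.035 after adjustment over 2 ratios, for which the threshold was 0.05). This fetal mean includes the lower ratios of 80 d and 100 d, while the 120 d mean, 0.26, was near the postnatal mean. The call on the difference did not hold in all settings. The difference was 0.39 (adjusted p = 0.34) with the dimmest probe set of ATP2A2, and the adjusted p lay between 0.051 and 0.071 with any of 6 arrays left out.

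The 3 lambs at 230 d spread widely in this ratio, at 0.45, 0.07 and 0.95. On the leading probe sets replicate 3 had the highest ATP2A1 signal of the series, 30018.9, with the lowest postnatal ATP2A2 signal, 15526.7, and replicate 2 had the reverse order at that stage, 20969.5 for ATP2A1 and 19922.5 for ATP2A2. On the second and the dimmest ATP2A2 probe sets replicate 1 was lowest at 230 d, with 13664.2 and 693.5, against 14859.7 and 763.6 on replicate 3. The third was lowest on replicate 3, at 694.6. The summed signal of the fast fibre genes was, like ATP2A1, highest on replicate 3, 247300, and lowest on replicate 2, 173500. The slow fibre genes did not run the other way: their sum was 98910 on replicate 1, 111000 on replicate 2 and 142300 on replicate 3, and slow myosin (MYH7) was 25784.2, 30165.3 and 38839.9. These are 3 animals, and the order was not tested.

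The log2 ratio of the regulators, SLN over PLN, fell through fetal life, and its postnatal mean lay under the mean of all fetal arrays. It was 6.84 ± 0.63 at 80 d, 5.80 ± 0.57 at 100 d and then 4.53 ± 0.41 at 120 d, and in lambs 3.42 ± 0.87 at 150 d and 4.41 ± 0.41 at 230 d. The fetal steps were -1.04 and -1.27 without overlap (exact permutation p = 0.1 each, the smallest possible). The steps across birth and after it overlapped. Lambs aged 230 d, at 3.93 to 4.71, also overlapped the 120 d fetuses, at 4.22 to 4.99. The fetal mean given next includes the higher ratios of 80 d and 100 d. The postnatal arrays had a mean of 3.92 ± 0.81 and the fetal arrays 5.72 ± 1.11, a difference of -1.81 (exact permutation p = 0.0046, adjusted 0.0092), which stayed under 0.05 in all alternatives run and with any array left out (adjusted p up to 0.035). Ratios of CASQ1 to CASQ2 and of PVALB to CASQ1 could not be formed.

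**Figure D4:**
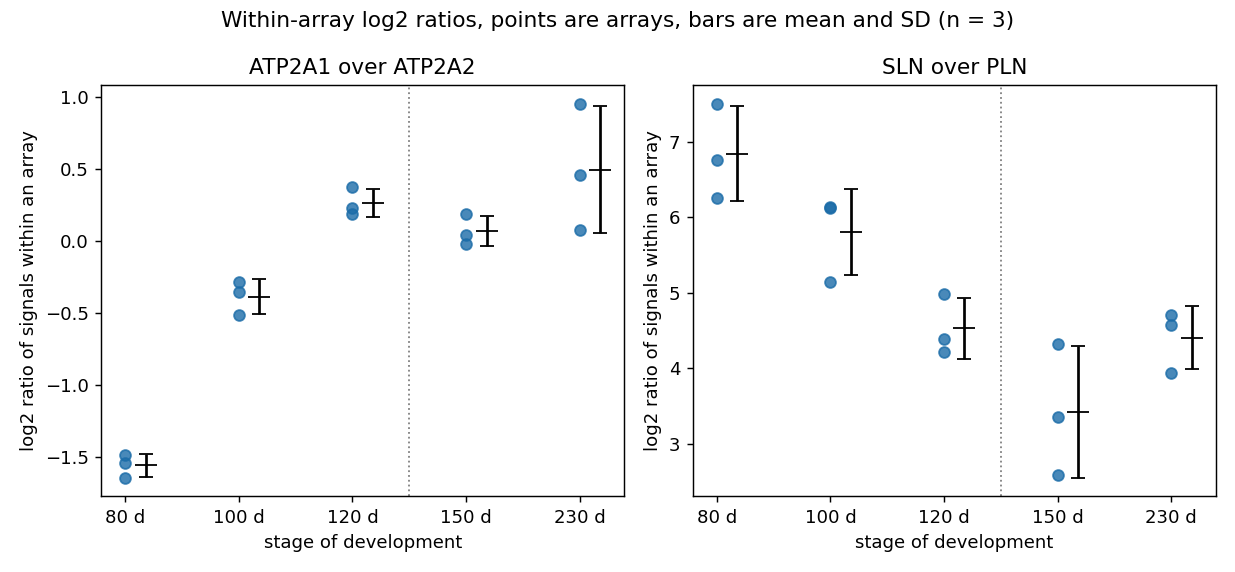
Log2 ratio of the signals of 2 genes within each array by stage, for ATP2A1 over ATP2A2 and for SLN over PLN. Points are arrays and bars are the mean and SD (n = 3). The mean pump ratio stands at -1.56 at 80 d and near 0 or above from 120 d, and the mean regulator ratio is highest at 80 d (6.84) and lowest at 150 d (3.42).

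The genes with the most similar course were searched for among 7541 named genes by Pearson r of log2 signal over the 15 arrays, as a description. ATP2A1 was most like ENO3 (0.992), the muscle enolase of glycolysis, COX7A1 (0.991), a muscle subunit of cytochrome c oxidase, and RTN2 (0.989), a reticulon of the endoplasmic reticulum. ATP2A2 was most like NDUFA12 (0.988) and NDUFV1 (0.987), subunits of respiratory complex I, and COX7C (0.986), of cytochrome c oxidase. SLN was closest to TNNI2 (0.980) and TNNT3 (0.965), which encode fast troponins, and MYL11 (0.971), a fast myosin light chain. PLN was closest to ATP1B1 (0.976), a subunit of the sodium pump, CCNG1 (0.963) and ETNPPL (0.960). For CACNA1S the highest r was 0.791, at signals near the floor.

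The wider calcium pathway was read from 9 lists of genes by role, which held 84 genes besides the members, 56 of them with a probe set and 52 tested on their brightest one. In the postnatal over the fetal stages 22 rose (42.3%) and 8 fell (15.4%), where 13.3% of all kept probe sets were higher and 21.3% lower. At 150 d over 120 d 5 rose (9.62%) and 3 fell (5.77%), beside 4.41% and 6.77% of all, so the share that fell there was near that of the whole array. At 120 d over 80 d 4 rose and 1 fell, beside 0.931% and 0.381%. After birth, at 230 d over 150 d, 1 rose and 2 fell, beside 0.944% and 1.08%, and at the 2 shorter fetal steps none was called. The median log2 fold change of the 52 was 0.61 in the postnatal stages and 0.28 at 150 d over 120 d, beside the -0.13 and -0.15 of all probe sets. The counts of each role list for the postnatal stages, given next, stand beside the same 13.3% higher and 21.3% lower of all.

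Of the complex around the release channel, 3 of 6 genes were higher in the postnatal stages and none lower. STAC3, an adaptor that couples the voltage sensor to RYR1, rose by 1.30 at 120 d over 80 d (adjusted p = 0.006), with a mean signal of 1498 ± 318 at 120 d and 602.7 ± 65.8 at 80 d. CACNB1, the beta subunit of the voltage sensor, averaged 1509 ± 200 at 120 d, 3314 ± 311 at 150 d and 1698 ± 314 at 230 d, a rise of 1.14 across birth (adjusted p = 0.00086) and a difference of -0.98 after it (adjusted p = 0.0075). Its 2 other probe sets differed by 0.12 and -0.27 at 150 d over 120 d, so this rests on 1 probe set. S100A1, a calcium sensor that binds RYR1, averaged 101.0 and 251.7 at 150 d and 230 d and 39.0, 29.8 and 87.3 in the fetal stages. The postnatal stages pooled were higher than the fetal stages pooled (limma, adjusted p = 0.00025). No fold is given, since the means at 80 d and 100 d lay under the minimum signal of 50. Across birth itself the arrays overlapped, at 79.8 to 123.7 at 150 d and 59.7 to 132.3 at 120 d.

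Among genes of the triad, where the surface membrane meets the store, 4 of 7 were higher and 1 lower in the postnatal stages. TMEM38B, a potassium channel of the store membrane, rose by 1.42 (adjusted p = 1.4e-05), with 569.8 ± 31.1 at 230 d and 121.6 ± 21.5 at 80 d. Of the store proteins 1 of 4 was higher and 2 lower. CALR, which encodes calreticulin, the calcium buffer of the reticulum in non-muscle and embryonic cells, fell by 1.43 on the log2 scale (adjusted p = 9.3e-05). Its mean signal was 3827 ± 631 at 80 d, 1938 ± 373 at 100 d and then 1494 ± 167 at 120 d, and in lambs 1187 ± 636 at 150 d and 630.1 ± 134 at 230 d.

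The mitochondrial list had 5 of 7 genes higher in the postnatal stages and none lower. VDAC1, the main pore of the outer membrane, rose by 1.66 at 150 d over 120 d (adjusted p = 6.4e-05) to 14080 ± 1812, against 4436 ± 102 at 120 d, and VDAC2 by 1.22 (adjusted p = 0.00044). SLC8B1, the sodium and calcium exchanger of the inner membrane, was lower at 150 d than at 120 d, with mean signals of 17.8 ± 11.7 and 79.8 ± 22.3, at least 1.55-fold against the minimum of 50 (adjusted p = 0.0031).

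Genes that read the calcium signal were called higher in 7 of 15 and lower in 2 in the postnatal stages. MYOZ1, which encodes a protein of the fast fibre Z-disc that binds calcineurin, had the largest rise, 2.10 (adjusted p = 5.3e-07), and was already 1.61 higher at 120 d over 80 d (adjusted p = 0.0028). CAMK2G, a calmodulin-dependent kinase, rose by 1.45 (adjusted p = 3e-06). MYLK2, the myosin light chain kinase of skeletal muscle, rose by 1.90 at 230 d over 150 d (adjusted p = 0.004), with 400.0 ± 139 at 230 d and 104.2 ± 20.2 at 150 d. CAMK1 fell by 1.68 at 120 d over 80 d (adjusted p = 0.0011), but a second probe set differed by 0.70.

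Of the cytosolic sensors 2 of 5 were higher and 2 lower in the postnatal stages. S100A4 rose by 1.87 at 120 d over 80 d (adjusted p = 0.00086). S100B had its highest mean at 120 d. It averaged 267.4 ± 64.3 at 80 d, 400.8 ± 27.7 at 100 d and then 653.1 ± 48.4 at 120 d, and in lambs 224.1 ± 45.6 at 150 d and 334.6 ± 91.1 at 230 d. It rose by 1.31 at 120 d over 80 d (adjusted p = 0.0088) and fell by 1.56 at 150 d over 120 d (adjusted p = 0.00074). S100B and S100A4 are also known from cells other than muscle fibres, S100B from glia and S100A4 from connective tissue.

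Of the membrane genes for calcium entry and exit, none of 6 was called in the postnatal over the fetal stages. ORAI1, the pore of store-operated entry, fell by 1.46 at 230 d over 150 d (adjusted p = 0.0013), to 195.5 ± 36.8 at 230 d against 538.3 ± 104 at 150 d, and its second probe set by 1.38. Of the 2 IP3 receptor genes tested, a list of their own, 0 were higher and 1 lower in the postnatal stages. ITPR1, an IP3 receptor, fell by 1.34 on the log2 scale at 150 d over 120 d (adjusted p = 0.0026), with 273.9 ± 88.0 and 670.5 ± 51.2. Its other probe sets differed there by -0.31, -0.74 and -0.59.

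Other cell types and RNA measures moved with stage as well. Fewer cells of a type and less RNA per cell cannot be told apart in whole muscle. The summed signal of 7 fast fibre genes was 60570 to 82280 at 80 d and 90460 to 120100 at 120 d, and in lambs 126700 to 200900 at 150 d and 173500 to 247300 at 230 d, with 6 of the 7 higher and 1 lower in the postnatal stages. For 6 slow fibre genes it was 27990 to 32800 at 80 d and 48020 to 58470 at 120 d, and in lambs 82540 to 96180 at 150 d and 98910 to 142300 at 230 d, with 5 higher and 1 lower. Fibroblast genes, all 7 above the minimum at every stage, summed to 42430 to 50180 at 230 d and 62730 to 80140 at 80 d, with 4 of 7 lower and none higher. Of the endothelial genes 3 of 5 were lower, and of the erythroid genes 2 of 4 tested, beside 21.3% of all kept probe sets lower and 13.3% higher in the postnatal stages. The erythroid genes summed to 163.2 to 191.3 at 230 d and 14440 to 24380 at 80 d. The 4 adipocyte genes on the array were brightest at 150 d. They summed to 103.4 to 130.3 at 80 d, 121.9 to 277.7 at 100 d and then 138.2 to 323.2 at 120 d, and in lambs 668.4 to 1205 at 150 d and 268.4 to 542.7 at 230 d, with 1 of 3 tested called higher in the postnatal stages and LEP under 50 on every array. The 4 leukocyte genes summed to 246.9 to 334.1 at 80 d and 224.1 to 284.0 at 120 d, and in lambs 175.7 to 226.1 at 150 d and 392.4 to 426.0 at 230 d, with none of 3 tested called in the postnatal stages and PTPRC under 50 on every array. The 3 nerve and glia genes summed to 81.2 to 194.9 over all arrays, with 1 of 2 tested called lower and NEFL under 50 throughout.

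PLN and ATP2A2 are also known from heart and smooth muscle. The 3 heart genes on the array summed to 345.6 to 450.9 at 80 d, 178.7 to 188.4 at 100 d and then 88.7 to 192.8 at 120 d, and in lambs 102.0 to 129.5 at 150 d and 105.6 to 266.3 at 230 d. TNNI3 (cardiac troponin) was under 50 on every array up to 150 d and reached 50 on at least 1 array at 230 d. The 4 smooth muscle genes summed to 5257 to 6080 at 80 d and 3348 to 3700 at 120 d, and in lambs 3346 to 3911 at 150 d and 5821 to 5927 at 230 d. The skeletal muscle list, 8 genes, summed to 110500 to 140600 at 230 d and 36580 to 47050 at 80 d, with only MYF5 under 50 at the postnatal stages. The ratio of 3′ to 5′ actin probes, a sign of RNA or labelling quality, was 1.89 ± 0.29 at 80 d, 1.54 ± 0.24 at 100 d and then 1.03 ± 0.10 at 120 d, and in lambs 0.91 ± 0.05 at 150 d and 1.00 ± 0.05 at 230 d, while that of GAPDH lay between 0.99 and 1.34 on all arrays. The mean log2 signal of the hybridisation controls was 10.3 ± 0.27 at 150 d and 9.65 ± 0.23 at 120 d. The part of these differences in the course of the calcium genes was not tested.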

How the data were processed

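LD muscle RNA of 15 sheep, 3 at each of 5 stages, was read on Affymetrix bovine arrays, 1 array per animal. The deposited intensities are MAS5 signals on a linear scale, which the authors scaled per array. The 2% trimmed mean was 200.1 on every array. The MAS5 version was not given in the sources used here. Stages were taken from the labels, and the p-values of the limma fits measure the spread between the animals of a stage. The permutation tests of postnatal against fetal ratios moved arrays across all 5 stages, so their spread includes differences between stages. The number of arrays limits the precision.

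Controls (112 probe sets) were removed, and a probe set was kept at a signal of 50 or more on at least 3 arrays. Signals under 0.1 (2 values) were set to 0.1 before log2. Comparisons used lmFit and eBayes of limma 3.58.1 (R 4.3.3) over all 15 arrays, with Benjamini-Hochberg adjustment within a comparison at 0.01. The postnatal value is the mean of 2 stage means, the fetal value of 3. Ratios were tested by exact permutation of arrays (5005 arrangements, adjusted p under 0.05) in Python 3.11.15. Both tests were first run on simulated data with known changes.

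Genes were named from the platform annotation of the array, 1 symbol per probe set (13292 probe sets, with 86 of several symbols and 10638 of none left unnamed). The brightest probe set by mean log2 signal leads a gene. Outside the members, the rule named up to 6 called genes of the role lists per comparison by size of change, and 3 genes of like course per member. The members and lists were chosen with earlier results of these data known. Alternatives were other scalings, an offset, filters, test options, a threshold, a replicate block and arrays left out. Protein and promoter sequences were not used here.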

Additional observations from a re-analysis of the deposited data

How the results depend on the processing

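The count of calcium probe sets called in the postnatal over the fetal stages (9) and that by the F test stayed within 1.5 times under every alternative run. At 150 d over 120 d the count of 6 became 0 with arrays scaled to the hybridisation controls, where the median of all kept probe sets was -0.81, and 0 with only the arrays of the 2 stages fitted. At 120 d over 80 d the 5 became 2 with only the arrays of the 2 stages, and 3 to 5 with 1 array left out, 3 without 80 d replicate 1, 80 d replicate 3 or 120 d replicate 3. At 100 d over 80 d the 0 became 1 with quantile normalization, 1 with the trend and robust options, 1 at a threshold of 0.05 and 5 under the nested F test. At 120 d over 100 d it became 1 with an offset of 16, 1 with the stricter filter, 2 with the trend and robust options, 2 at 0.05 and 8 under the nested F test. At 230 d over 150 d it became 3 under the nested F test. For these changes the cause was not tested, except that fitting 2 stages leaves fewer arrays.

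The difference in ATP2A1 over ATP2A2 stayed 0.843 under the replicate block, with an adjusted p of 0.052, became 0.387 (0.34) and 0.306 (0.35) with the dimmest ATP2A2 probe set against the brighter and the dimmer of ATP2A1, and lay between 0.707 and 0.959 with 1 array left out, past 0.05 without 80 d replicate 1, 2 or 3, 100 d replicate 1 or 230 d replicate 1 or 3. It reached 2.498 with the third ATP2A2 probe set. Same-numbered arrays of different stages came from different animals, and their deviations correlated at -0.053 to 0.207 (median 0.035, over 0.1 in 6 of 30 pairs), against -0.196 to 0.118 for differently numbered arrays (median -0.018, over 0.1 in 3 of 60 pairs). By their mean correlation, 8 of 15 arrays were closest to arrays of their own number. Since most same-numbered pairs lay under 0.1 the numbers were not taken to pair the samples. The replicate block kept every count of calls within 1.5 times.

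Directions that reversed were all of uncalled values. With the hybridisation controls these were the third ATP2A2 probe set at 150 d over 120 d (-0.191), the brightest of ATP2A2 at 100 d over 80 d (0.083), SLN at 150 d over 120 d (-0.241), the dimmest of PLN (-0.222) and the dimmer of ATP2A1 (-0.057) at 230 d over 150 d. With quantile normalization they were the brightest of ATP2A2 at 100 d over 80 d (0.004), the second of ATP2A2 at 230 d over 150 d (0.104) and SLN at 150 d over 120 d (-0.133). With equal medians they were the third of ATP2A2 in the postnatal stages (0.001) and the dimmest of PLN at 230 d over 150 d (-0.133). With 1 array left out, the third of ATP2A2 in the postnatal stages lay between -0.156 and 0.025, and at 230 d over 150 d the dimmest of PLN between -0.14 and 0.409 and the second of PLN between -0.678 and 0.203. CACNA1S, given no fold, was called in 0 of the fits (lowest adjusted p 0.012). SLN in the postnatal stages lay between 0.186 and 0.981 over the other settings.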
